A study of Rattus norvegicus with 18 samples.

Results

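Hearts of rats given doxorubicin together with AICAR were compared with hearts of rats given saline, 6 libraries against 6, each from 1 male Wistar rat, an outbred laboratory strain. The members are the 12 of 18 libraries whose treatment label reads DOX+AICAR or saline. The other 6 libraries, labelled DOX+saline, came from rats given doxorubicin with subcutaneous saline and are set beside some of the values. Rats weighed 250 g at the start and were injected into a vein in each of 5 weeks, with saline or with doxorubicin at 3 mg/kg. DOX+AICAR rats also received AICAR under the skin at 0.5 g/kg, at intervals that the sources used here do not state. No group received AICAR without doxorubicin. Whether the saline rats also had subcutaneous injections, and the time of day of collection, were not found in the sources used here. All hearts were taken under isoflurane anaesthesia and freeze-clamped. The labels number the saline animals 51 to 56 and the doxorubicin animals 1 to 12, so a difference between cohorts, if the numbers mark any, and one between treatments cannot be told apart.

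Doxorubicin is an anthracycline used against cancer. It binds DNA and poisons topoisomerase II, and its use is limited by injury to heart muscle. AICAR, a nucleoside, is phosphorylated inside cells to ZMP, which mimics AMP and activates the energy-sensing kinase AMPK, which promotes glucose uptake and fatty acid oxidation. A stressed heart is known to release natriuretic peptides, to return to fetal contractile genes, to lower genes of calcium cycling and to deposit matrix.

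Values are TPM, reads of a gene per unit of its length, on a scale that totals 1000000 in each library, so a change is a change of share. Libraries held 20.57 to 31.32 M reads in genes (M, 1000000), as recovered from the TPM values. At 1 TPM or more, 13559 to 13868 genes were detected per saline library and 14281 to 14544 per DOX+AICAR library, 640 more on average (two-sided exact permutation p = 0.00216, the smallest that 924 assignments allow). The defining markers of heart muscle among the named genes were abundant in both groups, with a sum over 9 cardiomyocyte markers of 32367 to 37697 TPM in saline and 27816 to 31894 TPM in DOX+AICAR. In whole tissue, fewer cells of a type and less RNA per cell cannot be told apart.

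Most genes tested differed between rats given both drugs and saline rats. Of 14732 genes tested, 7850 (53.3%) differed at an adjusted p below 0.05 (limma on log2(TPM + 1), Benjamini-Hochberg adjustment over all genes tested), 5133 (34.8%) higher and 2717 (18.4%) lower in DOX+AICAR. The libraries of the 2 groups did not overlap in 5086 genes (34.5%). On the deposited values, large differences were mostly increases, with 911 increases and 72 decreases of 2-fold or more. They numbered 162 and 2 at 4-fold or more, and 58 and 0 at 8-fold or more. These counts include genes low in saline that passed the filter on low values through the doxorubicin libraries, which outnumber the saline ones. The filter thus admits large increases more readily, and the counts were not repeated with other scalings. The balance of directions depended on scaling. Higher genes made up 65.4% of the calls on the deposited values, 3933 of 7872 calls with median-of-ratios factors and 40.5% of calls with quantile normalization, and the median log2 change of all genes tested was 0.09, shifted by -0.15 with quantile normalization.

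The table gives Ensembl identifiers without names, and the symbols below are prior knowledge of those identifiers, checked in part. Of 155 genes named in this way, 150 passed the filter on low values, which asked for 1 TPM or more in 6 or more libraries of 18. Of these, Il6, Tnc and Ptgs2 were below 1 TPM in all saline libraries. No saline library helped these 3 to pass the filter, and they are left out of the counts against saline given here. Spp1, Asns, Nr4a3, Il1b and Cd8a fell below 1 TPM in 1 or more saline libraries and also needed the other groups to pass. They stay among the 147 counted, and their adjusted p-values and list medians carry that limit. Of the remaining 147, 126 (85.7%, against 53.3% of all genes tested) differed from saline, 94 higher and 32 lower, and 21 did not pass the test. The groups did not overlap in 106 of the 147, or 72.1%, against 34.5% of all genes tested. At least 2-fold increases numbered 55 and 2-fold decreases 5, against 911 and 72 of all 14732 genes tested. No gene was left out of the counts over all genes for a low saline level, so the sets are unlike in that respect. The genes were chosen for roles in the injured heart and with earlier results of these data known, so nothing is read from these shares. The same holds for the counts of each list below, which stand against 34.8% higher and 18.4% lower over all genes tested. The 5 that did not pass the filter were Fgf21, Mmp9, Il10, Slc7a11 and Havcr1. Log2 changes below are on the log2(TPM + 1) scale, DOX+AICAR minus saline, with their standard error (SE, n = 6 per group), and understate the change of genes of low level.

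**Figure D1:**
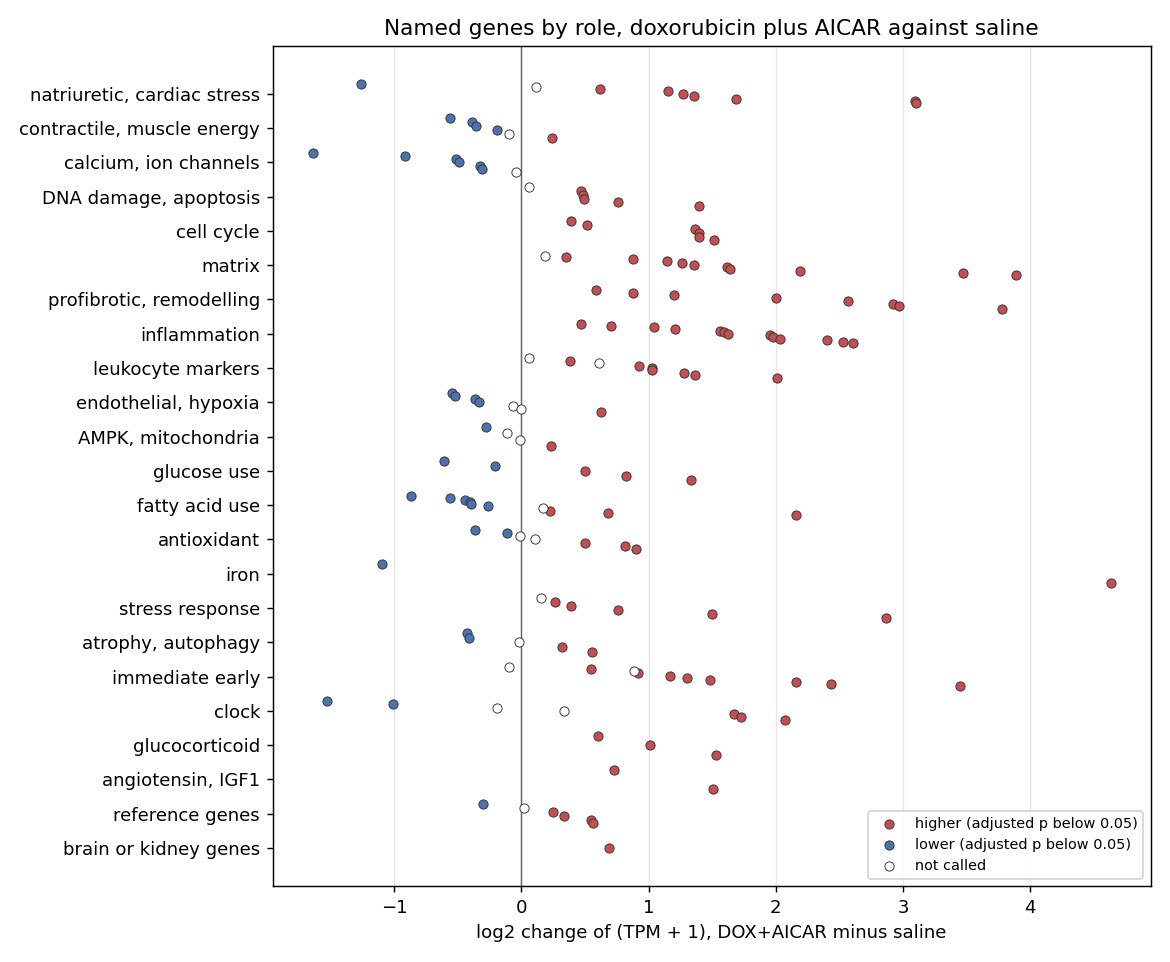
Log2 change of (TPM + 1), DOX+AICAR minus saline, on the horizontal axis for each of the 150 named genes tested, in rows by role; red points were higher and blue points lower at an adjusted p below 0.05 (limma, 6 libraries per group), and open points did not pass the test. Matrix, remodelling and inflammation genes lie to the right of 0, calcium and ion channel genes to the left, and Hamp has the highest value, 4.63. Il6, Tnc and Ptgs2 are among the points.

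Most genes of cardiac stress were higher in rats given both drugs. Of 9 tested, 7 were higher, 1 was lower and 1 did not pass the test (median log2 change 1.27). Nppa (ENSRNOG00000008176), which encodes atrial natriuretic peptide, ranged from 259.7 to 1364 TPM (median 541) in saline and from 4316 to 5405 TPM (median 4884) in DOX+AICAR. Nppb (ENSRNOG00000008141), which encodes the B-type natriuretic peptide, ranged from 187 to 415 TPM (median 285) in saline and from 826 to 1009 TPM (median 909.7) in DOX+AICAR. Every DOX+AICAR library lay above every saline library for both peptides. The log2 change was 3.09 (SE 0.296, adjusted p = 2.7e-07) for Nppa. That of Nppb was 1.68 (SE 0.14, adjusted p = 7.23e-08). Rats given doxorubicin without AICAR had 5389.5 ± 1161 TPM of Nppa and 1123 ± 189 TPM of Nppb (mean ± SD, n = 6), and the differences from DOX+AICAR did not pass the test (adjusted p = 0.884 and 0.322).

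Gdf15 (ENSRNOG00000019661), a secreted stress cytokine, ranged from 3.67 to 5.66 TPM (median 4.38) in saline and from 28.991 to 93.018 TPM (median 48.7) in DOX+AICAR, with no overlap. Its log2 change was 3.102 (SE 0.21, adjusted p = 8.77e-09). The fetal contractile genes Acta1 (ENSRNOG00000017786), skeletal alpha actin, and Myh7 (ENSRNOG00000016983), beta myosin heavy chain, were higher by 1.35 and 1.15 (adjusted p = 0.00013 and 2.36e-05). Ankrd1, a stretch-responsive protein of the sarcomere, rose by 0.62, and Edn1, the vasoconstrictor endothelin, by 1.27. None of these 4 overlapped between groups. Apln, a peptide that increases contractility, was the 1 member of the list that fell, with 28.8 ± 4.17 TPM in saline and 11.5 ± 2.16 TPM in DOX+AICAR (mean ± SD, n = 6), a log2 change of -1.26 (SE 0.11, adjusted p = 7.05e-08). Adm, which encodes the vasodilator adrenomedullin, changed by 0.12, adjusted p = 0.411, short of the threshold. Actins are near-identical in sequence, and how reads that fit several genes were counted is not known here, so values of Acta1, Actc1 and Acta2 are uncertain to that extent.

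**Figure D2:**
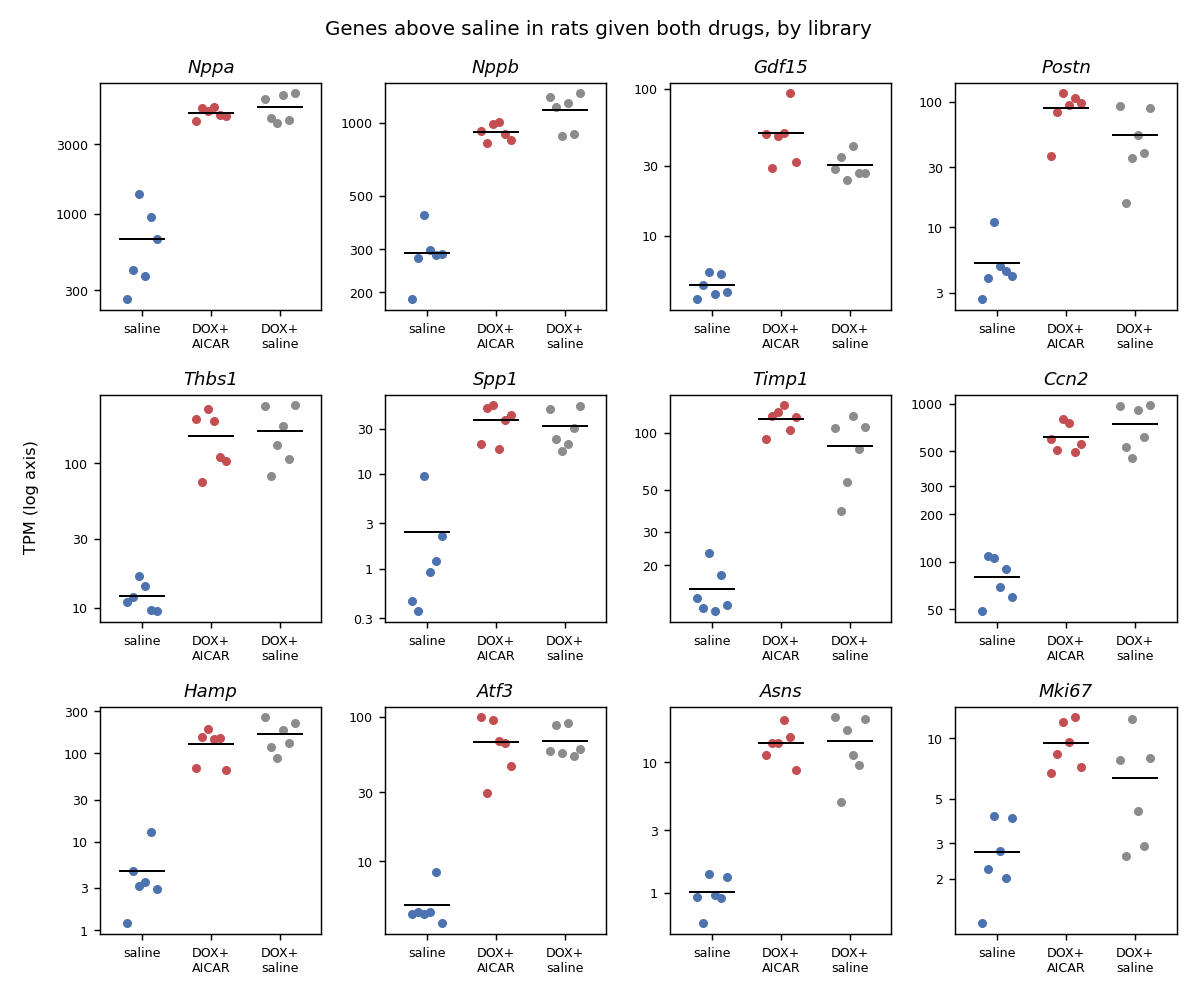
TPM on a log axis for 12 genes that were higher in DOX+AICAR than in saline; each point is 1 library and each bar the mean of 6. The DOX+AICAR points lie above all saline points in each panel, and DOX+saline libraries are shown for reference.

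Genes of the working muscle were mostly lower. Of 7 genes of calcium cycling, ion channels and the beta receptor, 6 were lower and 0 were higher, with a median log2 change of -0.49. Ryr2 (ENSRNOG00000017060), the channel that releases calcium from the sarcoplasmic reticulum, ranged from 353 to 381 TPM (median 369) in saline and from 111 to 126 TPM (median 116) in DOX+AICAR. The 6 libraries of each group lay close together and far from those of the other group. Its log2 change, -1.64 (SE 0.09, adjusted p = 2.19e-09), was the lowest of the 150 named genes. Kcnj2 (ENSRNOG00000004720), the inward rectifier potassium channel, ranged from 53.8 to 60.9 TPM (median 58.1) in saline and from 23.2 to 47.8 TPM (median 28.4) in DOX+AICAR. Its log2 change was -0.92 (SE 0.16, adjusted p = 0.00013), and the groups did not overlap although DOX+AICAR animal 12 lay well above its group. Gja1 (ENSRNOG00000000805), the gap junction protein connexin 43, ranged from 508 to 649 TPM (median 565) in saline and from 336 to 457 TPM (median 411) in DOX+AICAR, again without overlap, a log2 change of -0.52 (SE 0.098, adjusted p = 0.000253). Smaller decreases were found for Cacna1c, the L-type calcium channel (-0.49), Atp2a2, the SERCA2 calcium pump (-0.33), and Adrb1, the beta1 receptor (-0.31). The call of Adrb1 was lost without DOX+AICAR animal 11 (adjusted p = 0.0508). Casq2, which buffers calcium in the store, changed by -0.043, adjusted p = 0.398, short of the threshold.

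Of 6 contractile and muscle energy genes, 4 were lower, 1 was higher and 1 did not pass the test. Ckm (ENSRNOG00000016837), muscle creatine kinase, ranged from 2199.6 to 2553 TPM (median 2322) in saline and from 1419 to 1874 TPM (median 1563) in DOX+AICAR, a log2 change of -0.56 (SE 0.081, adjusted p = 2.04e-05). Tnni3 (ENSRNOG00000018250), cardiac troponin I, ranged from 3439 to 4803 TPM (median 3872) in saline and from 2706 to 3213 TPM (median 3021) in DOX+AICAR, a log2 change of -0.39 (SE 0.085, adjusted p = 0.000875). Mb (ENSRNOG00000004583), myoglobin, ranged from 7679 to 9581 TPM (median 8626) in saline and from 6168 to 7513 TPM (median 6656) in DOX+AICAR, a log2 change of -0.36 (SE 0.063, adjusted p = 0.000135). For all 3 the groups did not overlap. Tnnt2, cardiac troponin T, was lower by a log2 change of -0.19, with overlap. Des, the intermediate filament desmin, was higher by 0.24. Actc1, cardiac alpha actin, changed by -0.096, adjusted p = 0.0726. This list depended on scaling: with quantile normalization Mb and Tnnt2 were not called (-0.021 and -0.067) and Actc1 was higher (0.13), while with median-of-ratios factors Actc1 was lower (-0.19). The 9 cardiomyocyte markers summed above are all members of these muscle lists, 6 of them lower and 1 higher, and none was at 0 in any library. Whether there was less muscle per heart was not tested.

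**Figure D3:**
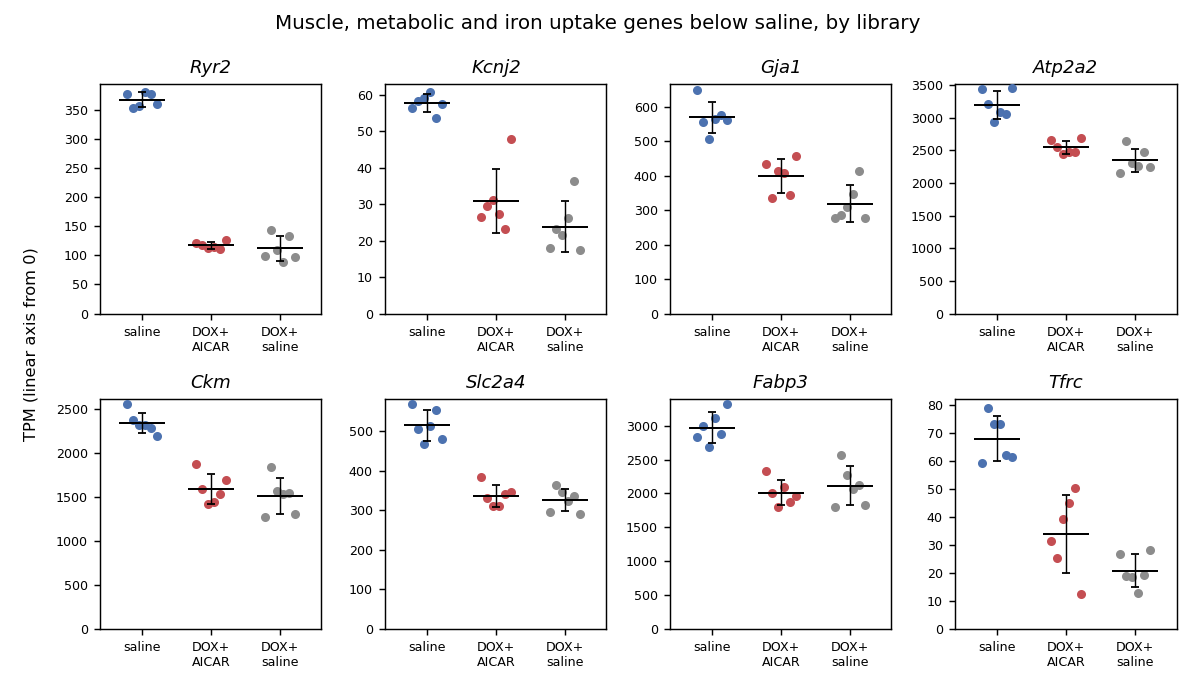
TPM on a linear axis from 0 for 8 genes that were lower in DOX+AICAR than in saline; each point is 1 library, and the bar and whiskers are the mean ± SD of 6. No DOX+AICAR point reaches the saline points in any panel, and Ryr2 in DOX+AICAR stays at or below 126 TPM.

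Genes of the DNA damage response and apoptosis were mostly higher. Damaged DNA is known to switch on genes of cell cycle arrest, repair and cell death. Of 6 genes of this list, 5 were higher, 0 lower and 1 did not pass the test (median 0.49). Bcl2l1 (ENSRNOG00000007946), the anti-apoptotic BCL-xL, ranged from 25.011 to 30.6 TPM (median 27.6) in saline and from 59.4 to 102 TPM (median 73.3) in DOX+AICAR, a log2 change of 1.395 (SE 0.12, adjusted p = 8.16e-08). Cdkn1a (ENSRNOG00000000521), the cell cycle inhibitor p21, ranged from 98.6 to 129 TPM (median 106) in saline and from 154 to 264 TPM (median 171) in DOX+AICAR, a log2 change of 0.76 (SE 0.12, adjusted p = 4.09e-05). Gadd45a (ENSRNOG00000005615), a growth arrest gene, ranged from 134 to 156 TPM (median 139) in saline and from 168 to 232 TPM (median 199) in DOX+AICAR, a log2 change of 0.49 (SE 0.078, adjusted p = 4.89e-05). No overlap was found for these 3. Mdm2, a ubiquitin ligase, and Bax, a pro-apoptotic pore protein, rose by 0.47 and 0.48. The anti-apoptotic Bcl2 changed by 0.056, adjusted p = 0.427.

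All 6 cell cycle genes tested were higher, with a median log2 change of 1.38. Mki67 (ENSRNOG00000028137), which encodes the Ki-67 antigen of dividing cells, ranged from 1.198 to 4.13 TPM (median 2.504) in saline and from 6.72 to 12.7 TPM (median 8.94) in DOX+AICAR, a log2 change of 1.51 (SE 0.29, adjusted p = 0.00035). Top2a (ENSRNOG00000053047), topoisomerase II alpha, a target of doxorubicin, ranged from 1.33 to 4.44 TPM (median 2.88) in saline and from 6.39 to 13.963 TPM (median 9.001) in DOX+AICAR, a log2 change of 1.39 (SE 0.35, adjusted p = 0.00291). Cdk1 (ENSRNOG00000000632), the mitotic kinase, ranged from 1.28 to 5.78 TPM (median 3.18) in saline and from 6.49 to 13.6 TPM (median 10.8) in DOX+AICAR, a log2 change of 1.396 (SE 0.31, adjusted p = 0.00103). Levels were low throughout, but no DOX+AICAR library reached down to the saline range for these 3. The summed level of 4 markers of dividing cells was 5.304 to 17.7 TPM in saline and 25.3 to 50.2 TPM in DOX+AICAR. Which cells carried these transcripts was not tested.

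Most matrix genes were higher. Of 10 collagens and other matrix genes counted, 9 were higher, 0 lower and 1 did not pass the test (median 1.31). Postn (ENSRNOG00000012660), periostin, a matricellular protein of activated fibroblasts, ranged from 2.66 to 11.1 TPM (median 4.27) in saline and from 36.9 to 116 TPM (median 96.4) in DOX+AICAR, a log2 change of 3.89 (SE 0.38, adjusted p = 3.63e-07). Thbs1 (ENSRNOG00000045829), thrombospondin 1, which can activate latent TGF-beta, ranged from 9.44 to 16.6 TPM (median 11.4) in saline and from 74.4 to 238 TPM (median 153) in DOX+AICAR, a log2 change of 3.47 (SE 0.303, adjusted p = 9.75e-08). Tnc (ENSRNOG00000058645), tenascin C, which is given with no test because it passed the filter only through the doxorubicin groups, ranged from 0.309 to 0.644 TPM (median 0.552) in saline and from 2.66 to 8.37 TPM (median 6.41) in DOX+AICAR. None of the 3 overlapped between groups. The fibrillar collagens Col1a1, Col1a2 and Col3a1 were higher by 1.36, 1.15 and 1.26, the cross-linking enzyme Lox by 1.61 and fibronectin, Fn1, by 1.64. Sparc, a collagen-binding protein, changed by 0.18, adjusted p = 0.111 (0.0436 with only the 12 libraries compared in the fit). The 6 fibroblast markers, all members of this list, were higher in 6 of 6, with a sum of 1705 to 2110.0 TPM in saline and 2987 to 4584 TPM in DOX+AICAR and no marker at 0; their part in the matrix result was not tested.

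All 8 profibrotic and remodelling genes tested were higher, with a median log2 change of 2.28, against 0.09 for all genes tested. Ccn2 (ENSRNOG00000015036), connective tissue growth factor, ranged from 48.4 to 108 TPM (median 79.6) in saline and from 492 to 803 TPM (median 576) in DOX+AICAR, a log2 change of 2.97 (SE 0.23, adjusted p = 2.82e-08). Spp1 (ENSRNOG00000043451), osteopontin, a matrix protein and cytokine of macrophages and fibroblasts, ranged from 0.352 to 9.57 TPM (median 1.07) in saline and from 18.4 to 52.9 TPM (median 39.7) in DOX+AICAR, a log2 change of 3.78 (SE 0.43, adjusted p = 1.86e-06). Spp1 needed the doxorubicin libraries to pass the filter, so its adjusted p adds no support. Timp1 (ENSRNOG00000010208), an inhibitor of matrix metalloproteinases, ranged from 11.4 to 23.1 TPM (median 12.9) in saline and from 92.6 to 139 TPM (median 121) in DOX+AICAR, a log2 change of 2.92 (SE 0.24, adjusted p = 5.2e-08). Saline and DOX+AICAR libraries were apart in all 3, although saline animal 53 was the highest of its group for Spp1. The ligand Tgfb2 rose by 2.56 and Tgfb1 by 0.59, and the lectin Lgals3 by 2.002. DOX+saline rats had 745 ± 238 TPM of Ccn2, 32.1 ± 14.6 TPM of Spp1 and 85.004 ± 32.8 TPM of Timp1 (mean ± SD, n = 6), and the adjusted p of the difference from DOX+AICAR was 0.646, 0.846 and 0.233.

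The promoters of 4 of the stress, matrix and remodelling genes are shown because they carry, in the 250 bases before their start site, the letters CATTCC or the reverse complement GGAATG, a string known as the core that TEAD factors bind. They are shown with these letters in capitals, 5′ to 3′ on the strand of the gene, from RefSeq, build GRCr8.
Ccn2 chr1:22624615-22624864, minus strand: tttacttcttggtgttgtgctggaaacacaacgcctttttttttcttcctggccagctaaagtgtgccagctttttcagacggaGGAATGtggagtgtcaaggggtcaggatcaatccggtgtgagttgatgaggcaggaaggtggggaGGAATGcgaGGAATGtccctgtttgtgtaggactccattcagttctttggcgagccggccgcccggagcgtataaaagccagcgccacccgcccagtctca
Thbs1 chr3:125510000-125510249, plus strand: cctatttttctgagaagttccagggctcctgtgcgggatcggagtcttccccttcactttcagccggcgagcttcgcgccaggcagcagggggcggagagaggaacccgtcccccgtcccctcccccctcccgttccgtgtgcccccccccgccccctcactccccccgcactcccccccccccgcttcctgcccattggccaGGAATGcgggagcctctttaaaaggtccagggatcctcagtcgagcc
Nppb chr5:163699758-163700007, plus strand: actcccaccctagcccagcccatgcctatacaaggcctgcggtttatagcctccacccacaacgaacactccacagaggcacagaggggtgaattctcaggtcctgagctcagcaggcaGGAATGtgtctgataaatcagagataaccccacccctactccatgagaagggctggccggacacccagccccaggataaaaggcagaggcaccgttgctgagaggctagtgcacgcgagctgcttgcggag
Acta1 chr19:68784195-68784444, minus strand: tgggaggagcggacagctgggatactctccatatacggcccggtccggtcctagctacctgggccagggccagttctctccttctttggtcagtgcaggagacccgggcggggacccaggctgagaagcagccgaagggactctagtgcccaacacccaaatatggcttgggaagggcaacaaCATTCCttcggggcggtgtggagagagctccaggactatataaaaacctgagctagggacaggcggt
The Ccn2 window holds 3 matches and the other windows 1 each. The string, on either strand, was found in 12.1% of 33469 such windows and in 22 of the 121 named genes with a window, of which 15 of 71 higher genes, 3 of 27 lower genes and 4 of 20 genes that did not pass the test. Other named genes, such as Acta2, Timp1 and Sparc, and the reference genes Gapdh and Tbp hold it too. It is 1 of 16 strings searched, and string and genes were picked after their matches were seen. A match is a description of the letters, not a site.

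Inflammatory genes were higher throughout the list. All 11 counted passed the test in that direction, with a median log2 change of 1.62. Ccl2 (ENSRNOG00000007159), the chemokine that draws monocytes, ranged from 5.22 to 9.01 TPM (median 6.38) in saline and from 15.9 to 95.1 TPM (median 42.4) in DOX+AICAR, a log2 change of 2.53 (SE 0.27, adjusted p = 9.25e-07). Ptgs2 (ENSRNOG00000002525), cyclooxygenase 2, likewise given with no test, ranged from 0.0784 to 0.452 TPM (median 0.25) in saline and from 2.68 to 16.8 TPM (median 4.61) in DOX+AICAR. Cxcl1 (ENSRNOG00000002802), a neutrophil chemokine, ranged from 1.48 to 2.31 TPM (median 1.85) in saline and from 3.76 to 138 TPM (median 8.44) in DOX+AICAR, a log2 change of 2.61 (SE 0.75, adjusted p = 0.00706). No library of one group reached the other in these 3, and Cxcl1 spread widely among rats given both drugs. Il6 was also below 1 TPM in all saline libraries, at most 0.246 TPM, and lay between 0.793 and 9.196 TPM in DOX+AICAR. The adhesion molecules Icam1 and Vcam1 rose by 1.98 and 2.03, and Socs3, a feedback inhibitor of cytokine signals, by 1.62. Tlr4, which senses bacterial lipopolysaccharide, was higher by 0.46 but was not called with quantile normalization (0.18).

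Most leukocyte markers were higher. Of 9 tested, 7 were higher, 0 lower and 2 did not pass the test. Cd68 (ENSRNOG00000037563), a lysosomal marker of macrophages, ranged from 8.196 to 10.5 TPM (median 8.87) in saline and from 30.3 to 43.7 TPM (median 40.5) in DOX+AICAR, a log2 change of 2.01 (SE 0.14, adjusted p = 1.02e-08). Itgam (ENSRNOG00000019728), the myeloid integrin CD11b, ranged from 1.94 to 2.25 TPM (median 2.04) in saline and from 5.64 to 9.08 TPM (median 6.52) in DOX+AICAR, a log2 change of 1.36 (SE 0.13, adjusted p = 1.97e-07). Ptprc (ENSRNOG00000000655), the pan-leukocyte antigen CD45, ranged from 4.802 to 5.47 TPM (median 5.27) in saline and from 11.8 to 17.4 TPM (median 13.7) in DOX+AICAR, a log2 change of 1.28 (SE 0.25, adjusted p = 0.000308). These 3 did not overlap between groups. Cd4, of helper T cells, was higher by 0.38, but its call was lost with both other scalings and without DOX+AICAR animal 7, 9 or 10 or saline animal 51, 52 or 56 (adjusted p up to 0.0747). Cd74, the invariant chain of MHC class II, changed by 0.056, adjusted p = 0.708 (-0.04 with median-of-ratios factors). Cd8a, of cytotoxic T cells, changed by 0.61, adjusted p = 0.189, but was called with only the 12 libraries compared in the fit (0.0205). All 9 markers summed to 823 to 913 TPM in saline and 869 to 1194 TPM in DOX+AICAR, with overlap, and Cd74 made up most of that sum. Without Cd74, the 8 other markers summed to 83.6 to 112 TPM in saline and 172 to 248 TPM in DOX+AICAR. No marker was at 0, and the part of the markers in the inflammatory result was not tested.

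Endothelial genes were mostly lower. Of 7 endothelial, VEGF and hypoxia genes, 4 were lower, 1 higher and 2 did not pass the test (median -0.34). Tek (ENSRNOG00000008587), the angiopoietin receptor TIE2, ranged from 57.5 to 66.8 TPM (median 62.7) in saline and from 34.2 to 47.7 TPM (median 43.2) in DOX+AICAR, a log2 change of -0.55 (SE 0.067, adjusted p = 3.57e-06). Kdr (ENSRNOG00000046829), VEGF receptor 2, ranged from 65.1 to 77.5 TPM (median 72.1) in saline and from 46.8 to 54.5 TPM (median 50.1) in DOX+AICAR, a log2 change of -0.52 (SE 0.089, adjusted p = 0.000111). Vwf (ENSRNOG00000019689), von Willebrand factor, went the other way and ranged from 54.2 to 68.6 TPM (median 60.7) in saline and from 84.9 to 110.1 TPM (median 93.986) in DOX+AICAR, a log2 change of 0.63 (SE 0.093, adjusted p = 2.58e-05). Libraries of the 2 groups were apart for these 3 genes. The growth factor Vegfa and the endothelial nitric oxide synthase Nos3 were lower by log2 changes of -0.34 and -0.37. The VEGF receptor Flt1 changed by -0.066, adjusted p = 0.531, and the hypoxia factor Hif1a by -0.0072, adjusted p = 0.953. The summed level of 5 endothelial markers overlapped, at 289 to 331 TPM in saline and 255 to 316 TPM in DOX+AICAR.

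AMPK is the kinase that AICAR activates, and its activity is set by phosphorylation rather than by transcript level. Of its catalytic subunits, Prkaa2, the main one of heart muscle, changed by -0.01, adjusted p = 0.939. Prkaa1 (ENSRNOG00000012799), the other subunit, ranged from 12.5 to 14.5 TPM (median 13.6) in saline and from 12.984 to 17.9 TPM (median 16.025) in DOX+AICAR, with overlap. Its log2 change, 0.23 (SE 0.067, adjusted p = 0.00785), was not called with median-of-ratios factors (0.14) or quantile normalization (0.082). Ppargc1a, a coactivator of mitochondrial genes, changed by -0.11, adjusted p = 0.454. Sdha (ENSRNOG00000013331), a subunit of respiratory complex II, was lower without overlap and ranged from 1490.0 to 1624 TPM (median 1518) in saline and from 1186 to 1384 TPM (median 1236) in DOX+AICAR, a log2 change of -0.28 (SE 0.052, adjusted p = 0.000244).

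Among glucose genes, 3 of 5 were higher and 2 lower. Slc2a4 (ENSRNOG00000017226), the insulin-responsive transporter GLUT4, ranged from 468 to 568 TPM (median 509.5) in saline and from 309 to 385 TPM (median 335) in DOX+AICAR, a log2 change of -0.61 (SE 0.065, adjusted p = 8.69e-07). Pdk4 (ENSRNOG00000009565), which blocks the entry of pyruvate into oxidation, ranged from 103 to 293 TPM (median 253) in saline and from 326 to 712 TPM (median 484) in DOX+AICAR, a log2 change of 1.33 (SE 0.27, adjusted p = 0.000474). Txnip (ENSRNOG00000021201), which limits glucose uptake, ranged from 321 to 534 TPM (median 377) in saline and from 550.2 to 840.0 TPM (median 693) in DOX+AICAR, a log2 change of 0.82 (SE 0.13, adjusted p = 7e-05). For all 3 the groups did not overlap, GLUT4 being low and the other 2 high in rats given both drugs. Slc2a1, the basal transporter GLUT1, was higher by 0.496. Hk2, the hexokinase of muscle, was lower by a log2 change of -0.21 at an adjusted p of 0.0497, just inside the threshold, and its call was lost without DOX+AICAR animal 7, 8, 10 or 11 or saline animal 51, 52, 53, 55 or 56 (adjusted p up to 0.119).

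Genes of fatty acid use divided, with 3 of 10 higher, 6 lower and 1 short of the threshold (median -0.33). Fabp3, the fatty acid binding protein of heart (2972 ± 226 TPM in saline and 2011 ± 185 TPM in DOX+AICAR, mean ± SD, n = 6), Acadm, medium-chain acyl-CoA dehydrogenase, Lpl, lipoprotein lipase, Cpt1b, the muscle carnitine palmitoyltransferase, and the nuclear receptor Ppara were lower by log2 changes of -0.56, -0.44, -0.402, -0.26 and -0.398. Angptl4 (ENSRNOG00000007545), an inhibitor of lipoprotein lipase, ranged from 1.01 to 13.6 TPM (median 4.26) in saline and from 14.6 to 28.9 TPM (median 22.3) in DOX+AICAR, a log2 change of 2.16 (SE 0.39, adjusted p = 0.000168). Pparg (ENSRNOG00000008839), the nuclear receptor PPAR gamma, ranged from 5.46 to 7.96 TPM (median 6.81) in saline and from 8.34 to 14.1 TPM (median 11.6) in DOX+AICAR, a log2 change of 0.68 (SE 0.196, adjusted p = 0.00728). Both were higher without overlap, unlike the oxidation genes above, but Pparg was not called with quantile normalization (0.45). Ucp3 (ENSRNOG00000017716), a mitochondrial uncoupling protein, ranged from 7.15 to 26.1 TPM (median 19.9) in saline and from 4.53 to 15.6 TPM (median 7.96) in DOX+AICAR, with overlap. Its log2 change of -0.87 (SE 0.33, adjusted p = 0.0337) lost its call without DOX+AICAR animal 8, 9, 11 or 12 or saline animal 53, 54, 55 or 56 (adjusted p up to 0.0824). Cpt1a, the carnitine palmitoyltransferase typical of liver, changed by 0.17, adjusted p = 0.232.

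Of 7 antioxidant genes, 3 were higher, 2 lower and 2 did not pass the test. Their median log2 change was 0.11, against 0.09 for all genes tested, of which 34.8% were higher and 18.4% lower, so the list as a whole was near the background. Gclc (ENSRNOG00000006302), the catalytic subunit of the rate-limiting enzyme of glutathione synthesis, ranged from 13.4 to 16.6 TPM (median 14.8) in saline and from 25.1 to 30.6 TPM (median 29.6) in DOX+AICAR, a log2 change of 0.903 (SE 0.09, adjusted p = 4.09e-07). Hmox1 (ENSRNOG00000014117), haem oxygenase 1, ranged from 21.028 to 29.6 TPM (median 27.2) in saline and from 32.7 to 58.2 TPM (median 48.971) in DOX+AICAR, a log2 change of 0.81 (SE 0.16, adjusted p = 0.000412). Nfe2l2 (ENSRNOG00000001548), which encodes the antioxidant regulator NRF2, ranged from 57.4 to 62.3 TPM (median 59.1) in saline and from 73.7 to 97.2 TPM (median 85.7) in DOX+AICAR, a log2 change of 0.498 (SE 0.059, adjusted p = 2.66e-06). None of these 3 overlapped. The superoxide dismutases Sod2, of mitochondria, and Sod1, of the cytosol, were lower by log2 changes of -0.37 and -0.11. Catalase, Cat, changed by -0.0092, adjusted p = 0.869, and Nqo1, a quinone reductase and common NRF2 target, by 0.11, adjusted p = 0.293.

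Both iron genes tested differed strongly. Hamp (ENSRNOG00000021029), which encodes hepcidin, the peptide that blocks iron export from cells, ranged from 1.19 to 12.8 TPM (median 3.35) in saline and from 64.2 to 188 TPM (median 147) in DOX+AICAR. Every DOX+AICAR library lay above the saline range, and the log2 change of 4.63 (SE 0.38, adjusted p = 5.41e-08) was the highest of the named genes. Tfrc (ENSRNOG00000001766), the transferrin receptor of iron uptake, ranged from 59.5 to 78.987 TPM (median 67.8) in saline and from 12.3 to 50.6 TPM (median 35.4) in DOX+AICAR, a log2 change of -1.10 (SE 0.26, adjusted p = 0.00162). Tfrc showed no overlap, but rats given both drugs spread widely. In DOX+saline rats the levels were 166 ± 64.4 TPM of Hamp and 20.7 ± 5.86 TPM of Tfrc (mean ± SD, n = 6), and their adjusted p against DOX+AICAR was 0.639 and 0.233.

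The integrated stress response lets cells short of amino acids or with misfolded proteins translate ATF4, which activates genes such as Asns and Trib3. Of 6 stress response genes, 5 were higher, 0 lower and 1 did not pass the test (median 0.57). Asns (ENSRNOG00000007546), asparagine synthetase, ranged from 0.584 to 1.404 TPM (median 0.946) in saline and from 8.64 to 20.8 TPM (median 13.965) in DOX+AICAR, a log2 change of 2.86 (SE 0.27, adjusted p = 2.62e-07). Asns needed the doxorubicin libraries to pass the filter, so its adjusted p adds no support. Trib3 (ENSRNOG00000007319), a pseudokinase, ranged from 1.51 to 2.799 TPM (median 1.99) in saline and from 6.18 to 10.5 TPM (median 7.23) in DOX+AICAR, a log2 change of 1.499 (SE 0.12, adjusted p = 4.76e-08). Hspb1 (ENSRNOG00000023546), the small heat shock protein HSP27, ranged from 299.8 to 481 TPM (median 414) in saline and from 646 to 719.8 TPM (median 681) in DOX+AICAR, a log2 change of 0.76 (SE 0.11, adjusted p = 2.41e-05). All 3 lay above saline in every library. Atf4 and the chaperone Hspa5 were higher by 0.26 and 0.39. Ddit3, the factor CHOP, changed by 0.15, adjusted p = 0.0729 (0.0122 with only the 12 libraries compared in the fit).

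Genes of atrophy and autophagy showed no common direction, with 2 of 5 higher, 2 lower and 1 short of the threshold. Foxo3 (ENSRNOG00000000299), a transcription factor of atrophy and autophagy genes, ranged from 27.8 to 33.1 TPM (median 29.4) in saline and from 35.9 to 54.1 TPM (median 44.7) in DOX+AICAR, a log2 change of 0.56 (SE 0.12, adjusted p = 0.0011). Fbxo32 (ENSRNOG00000006738), the ubiquitin ligase atrogin-1, ranged from 137 to 166 TPM (median 148) in saline and from 100.4 to 126 TPM (median 111) in DOX+AICAR, a log2 change of -0.43 (SE 0.11, adjusted p = 0.00327). The groups did not overlap, Foxo3 being high and Fbxo32 low in rats given both drugs. Foxo1 was lower by a log2 change of -0.42, and the autophagy receptor Sqstm1 was higher by 0.32. Trim63, the ligase MuRF1, changed by -0.016, adjusted p = 0.906.

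Immediate early genes are induced within minutes by growth signals and stress. Of 10, 8 were higher, 0 lower and 2 did not pass the test (median 1.24). Atf3 (ENSRNOG00000003745), a stress-induced transcription factor, ranged from 3.71 to 8.49 TPM (median 4.398) in saline and from 29.8 to 99.1 TPM (median 67.1) in DOX+AICAR, a log2 change of 3.45 (SE 0.25, adjusted p = 1.79e-08). Nr4a3 (ENSRNOG00000005964), an orphan nuclear receptor, ranged from 0.682 to 1.83 TPM (median 1.26) in saline and from 3.96 to 26.1 TPM (median 14.5) in DOX+AICAR, a log2 change of 2.44 (SE 0.40, adjusted p = 6.93e-05). Nr4a3 also needed the doxorubicin libraries to pass the filter, and its adjusted p carries that limit. Myc (ENSRNOG00000004500), a growth factor-induced regulator, ranged from 3.08 to 5.75 TPM (median 4.16) in saline and from 18.7 to 32.2 TPM (median 20.8) in DOX+AICAR, a log2 change of 2.16 (SE 0.20, adjusted p = 1.81e-07). None of these 3 overlapped. Fos and Dusp1, a phosphatase of MAP kinases, changed by 0.88, adjusted p = 0.134, and -0.098, adjusted p = 0.672. Nr4a1 was higher by 1.17, a call lost without DOX+AICAR animal 7, 9 or 10 or saline animal 51 or 53 (adjusted p up to 0.0612).

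Clock genes differed in opposite directions. In the circadian clock, BMAL1 pairs with CLOCK or NPAS2 to activate the Per genes and Dbp, PER proteins repress that pair, and REV-ERB alpha, encoded by Nr1d1, represses Bmal1. Of 7 clock genes, 3 were higher, 2 lower and 2 did not pass the test. Per1 (ENSRNOG00000007387) ranged from 8.37 to 23.6 TPM (median 9.13) in saline and from 39.6 to 73.6 TPM (median 45.5) in DOX+AICAR, a log2 change of 2.07 (SE 0.197, adjusted p = 2.62e-07). Per2 (ENSRNOG00000020254) ranged from 4.32 to 5.88 TPM (median 4.92) in saline and from 13.98 to 21.8 TPM (median 19.3) in DOX+AICAR, a log2 change of 1.67 (SE 0.13, adjusted p = 2.56e-08). Dbp (ENSRNOG00000021027), an output factor of the clock, ranged from 16.7 to 25.1 TPM (median 19.1) in saline and from 50.3 to 104 TPM (median 69.016) in DOX+AICAR, a log2 change of 1.72 (SE 0.19, adjusted p = 1.05e-06). These 3 were high in rats given both drugs, without overlap. Bmal1 (ENSRNOG00000014448) ranged from 52.8 to 62.6 TPM (median 54.1) in saline and from 13.6 to 27.3 TPM (median 18.1) in DOX+AICAR, a log2 change of -1.53 (SE 0.23, adjusted p = 3.32e-05). Npas2 was lower by a log2 change of -1.01, also without overlap. Nr1d1 changed by 0.34, adjusted p = 0.0634, and Clock by -0.196, adjusted p = 0.0867, Clock being called lower with quantile normalization (-0.297) and with median-of-ratios factors (-0.29).

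On the deposited values, Per1 and Dbp were the 2 named genes called between DOX+AICAR and DOX+saline, a comparison in which 1.33% of all genes tested were called. As 2 of 150, that is the same share as over all genes, so the number of calls says nothing about the named genes. Per1 lay between 82.022 and 104 TPM in DOX+saline, above every DOX+AICAR library, and the log2 difference, DOX+AICAR minus DOX+saline, was -0.92 (SE 0.197, adjusted p = 0.0359). Dbp lay between 109 and 227 TPM in DOX+saline, also without overlap, and differed by -0.998 (SE 0.19, adjusted p = 0.024). In rats given both drugs, both genes thus lay between saline and doxorubicin alone. The calls were narrow. That of Per1 was lost without DOX+AICAR animal 9, 10, 11 or 12 (adjusted p = 0.0654, 0.0753, 0.0714 and 0.059), and that of Dbp without animal 9 or 10 (0.0529 and 0.0548). Per2 and Bmal1 differed from DOX+saline by -0.44 (SE 0.13, adjusted p = 0.0874) and 0.87 (SE 0.23, adjusted p = 0.07), which did not pass the test.

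**Figure D4:**
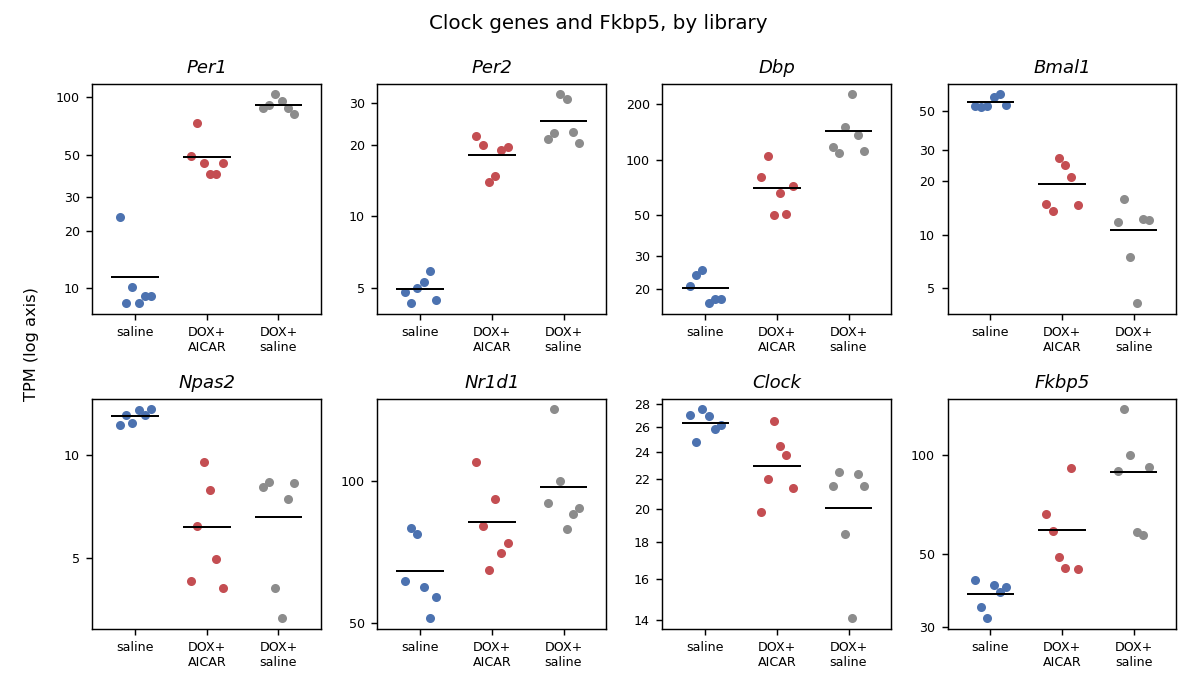
TPM on a log axis for 7 clock genes and the glucocorticoid target Fkbp5; each point is 1 library and each bar the mean of 6. For Per1 and Dbp the DOX+AICAR libraries lie above all saline and below all DOX+saline libraries, and for Bmal1 and Npas2 they lie below all saline libraries.

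The 250 bases before the start of Per2 and of Bmal1 are shown for the letters of elements through which clock factors are known to act. In Per2 the capitals mark TTATGTAA, a form of the D-box that DBP binds. In Bmal1 they mark AGGTCA, the core of the element that REV-ERB and ROR receptors bind (RefSeq, build GRCr8, 5′ to 3′ on the strand of the gene).
Per2 chr9:99496994-99497243, minus strand: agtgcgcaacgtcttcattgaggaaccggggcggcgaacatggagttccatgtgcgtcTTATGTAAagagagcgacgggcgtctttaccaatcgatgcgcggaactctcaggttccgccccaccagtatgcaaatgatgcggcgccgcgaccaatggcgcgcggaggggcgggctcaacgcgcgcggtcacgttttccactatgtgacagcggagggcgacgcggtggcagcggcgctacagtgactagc
Bmal1 chr1:176766078-176766327, plus strand: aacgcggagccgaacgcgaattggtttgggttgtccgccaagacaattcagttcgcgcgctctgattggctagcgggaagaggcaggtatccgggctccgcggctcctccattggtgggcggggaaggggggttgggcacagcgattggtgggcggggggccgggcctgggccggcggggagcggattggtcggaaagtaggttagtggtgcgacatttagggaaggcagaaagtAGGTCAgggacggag
TTATGTAA, or its reverse complement, was found in 0.828% of 33469 windows and in 1 of 121 named genes with a window. AGGTCA, or its reverse complement, was found in 14.1% of windows and in 12 of 121 named genes, 4 of them higher, 4 lower and 4 that did not pass the test. Both strings belong to the same 16, and the pair of genes was picked after the matches were seen.

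All 3 glucocorticoid-responsive genes were higher. Sgk1 (ENSRNOG00000011815), a kinase that regulates ion transport, ranged from 11.2 to 17.3 TPM (median 14.3) in saline and from 18.4 to 42.956 TPM (median 29.9) in DOX+AICAR, a log2 change of 1.01 (SE 0.15, adjusted p = 2.02e-05), without overlap. Zbtb16 (ENSRNOG00000029980), the zinc finger factor PLZF, ranged from 14.7 to 53.3 TPM (median 18.3) in saline and from 45.2 to 116 TPM (median 58.6) in DOX+AICAR, a log2 change of 1.53 (SE 0.47, adjusted p = 0.0106), and overlapped through saline animal 51. That animal also had the highest Per1 of its group. Fkbp5, a chaperone of the glucocorticoid receptor, was higher by 0.601, with 37.7 ± 3.79 TPM in saline and 59.3 ± 17.8 TPM in DOX+AICAR and 89.3 ± 30.1 TPM in DOX+saline (mean ± SD, n = 6). Its log2 difference, DOX+AICAR minus DOX+saline, was -0.56 (SE 0.197, adjusted p = 0.149) and did not pass the test.

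Of hormone genes, Agt (ENSRNOG00000018445), angiotensinogen, ranged from 2.21 to 2.94 TPM (median 2.699) in saline and from 5.24 to 15.1 TPM (median 10.3) in DOX+AICAR, a log2 change of 1.51 (SE 0.37, adjusted p = 0.00248). Igf1 (ENSRNOG00000004517), insulin-like growth factor 1, ranged from 22.1 to 33.9 TPM (median 25.5) in saline and from 35.1 to 54.3 TPM (median 42.3) in DOX+AICAR, a log2 change of 0.73 (SE 0.13, adjusted p = 0.000123). Both were higher without overlap. Of 6 genes often used as references, 4 were higher, 1 lower and 1 did not pass the test: Actb rose by 0.56, Gapdh was lower by a log2 change of -0.30, and Tbp changed by 0.021, adjusted p = 0.793. Arc, listed as a gene of brain, was higher by 0.69 but was not called with quantile normalization (0.40), and Havcr1, a gene of injured kidney, stayed at or below 0.282 TPM in both groups.

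Over the whole table, the largest called changes were under identifiers that are given without a name here. ENSRNOG00000009316 ranged from 0 to 18.3 TPM (median 0.104) in saline and from 100.3 to 444 TPM (median 232) in DOX+AICAR, a log2 change of 7.02 (SE 0.61, adjusted p = 8.99e-08), and 244 ± 116 TPM in DOX+saline (mean ± SD, n = 6). ENSRNOG00000019183 ranged from 0.582 to 4.12 TPM (median 3.48) in saline and from 108 to 1238 TPM (median 629.9) in DOX+AICAR, a log2 change of 7.02 (SE 0.61, adjusted p = 1.02e-07). Both were higher without overlap. Both also fell below 1 TPM in saline, the first even in its median, and needed the doxorubicin groups to pass the filter. As they were then picked for their size, their adjusted p-values add no support. Of the lower genes, ENSRNOG00000032274 ranged from 38.5 to 82.8 TPM (median 60.1) in saline and from 8.03 to 22.01 TPM (median 9.41) in DOX+AICAR, a log2 change of -2.36 (SE 0.25, adjusted p = 6.89e-07), without overlap. ENSRNOG00000013548 ranged from 12.7 to 252 TPM (median 132) in saline and from 8.09 to 109 TPM (median 14.9) in DOX+AICAR, with overlap, a log2 change of -2.24 (SE 0.83, adjusted p = 0.0308). In DOX+saline it had 264 ± 249 TPM, with a log2 change against saline of 0.86 (adjusted p = 0.392), and the log2 difference between DOX+AICAR and DOX+saline was -3.105 (adjusted p = 0.0704). DOX+saline rats had 509 ± 524 TPM of ENSRNOG00000019183 and 10.7 ± 3.55 TPM of ENSRNOG00000032274. These 4 have the largest fitted changes in each direction among called genes whose mean reached 5 TPM in either group.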

How the data were processed

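RNA of 18 rat hearts was measured as strand-specific polyadenylated libraries, per the labels' protocols. Per the submitters' processing notes, the authors used bcl2fastq 2.17.1.14, HISAT2, featureCounts of Subread 1.5.0 and build Rnor_6.0; none of the annotation, the strand setting or the treatment of reads that fit several genes is given in the sources used here. The deposited values are TPM, scaled by the authors to 1000000 per library, for 32545 Ensembl identifiers. Each library carries the number of 1 animal in its label. The DOX+saline libraries numbered 1 and 6 were close in many named genes, such as Ptgs2 (9.067 and 9.062 TPM) and Thbs1 (250.7 and 252.1 TPM). They were less alike in others, such as Col1a2 (355.9 and 491.5 TPM). Whether they come from separate animals was not tested. The fit and the DOX+saline means and SDs count them as separate, and comparisons with DOX+saline carry that limit.

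Genes that reached 1 TPM in 6 or more of 18 libraries were fitted with limma 3.58.1 (R 4.3.3; trend, 1 mean per group, all 18 libraries) on log2(TPM + 1), with two-sided p-values and Benjamini-Hochberg adjustment; calls were made at an adjusted p under 0.05. Whole reads, used for depth and 1 alternative, were recovered for 25878 of 25878 genes above 0 within 0.01 reads. Precision of a level is limited by counting at low TPM and by 6 animals per group. The test was checked on simulated data in which few genes changed, evenly up and down and all above a minimum of reads. That check does not bear on the choice of scaling or on genes scarce in saline.

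Neither the table nor the reference pairs identifiers with names. The 158 pairs of identifier and symbol, in 23 lists, come from prior knowledge; members and lists were chosen with earlier results of these data known. All symbols are therefore prior knowledge, checked only in part. A level expected in saline heart (at least 20 TPM for abundant genes, under 5 TPM for scarce ones) was met by 38 of 41 pairs, 92.7%; Cd36, Gpx4 and Bdnf failed it and are not named, which leaves 155. Some genes of the lists are not reported here. The planned check against coding length was not run for want of a protein table. A further 2 checks were added after the files were seen: in row order the 158 symbols fell into 21 runs for 21 chromosomes of GRCr8, with 135 of 137 neighbours in order (exceptions Cdkn1a with Fkbp5 and Pdk4 with Col1a2), and all 158 recovered gene lengths fitted within the locus span. Cd36, Gpx4 and Bdnf, which failed on level, passed both of these, so passing them does not settle a symbol. Pairs outside the 41 had no check of level. Genes given with their range were, after values were seen, the 3 largest absolute changes of a list with 6 or more tested, 2 of smaller lists and 4 clock genes, and outside that rule Slc2a4. The text also names other members of each list.

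Besides the strings shown, 13 were searched in the 250 bases before the start of each gene, on both strands, with these shares of windows: CACGTG 5.59%, TGATGNAA 3.4%, TTGCATCA 0.693%, TGACGTCA 1.59%, TGACTCA 4.05%, CACGTC 5.25%, TGACGTAA 0.75%, TATAAA 12.9%, TGANTCA 6.34%, TGACGNNA 6.15%, the serum response element in 2 forms (0.0299% and 0.0747%) and the NF-kappaB site (0.0956%). TGANTCA includes TGACTCA, and TGACGNNA includes TGACGTCA and TGACGTAA. Alternatives varied the pseudocount, filter, scaling, weights, libraries in the fit and model, and left out each animal of the 2 groups.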

Additional observations from a re-analysis of the deposited data

Results flagged for a closer look

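In 116 groups of 6 libraries (58 genes, saline and DOX+AICAR), 11 held a library whose gap to the next, as a share of the group's range, passed Dixon's critical value. Chance gives about 1 in 20, or 5.8, for independent groups of normally distributed values. The genes here share the same libraries, are in TPM and were mostly picked by their changes. No excess over chance is therefore read from the 11. In DOX+AICAR, animal 11 had the highest Gdf15, 93.018 TPM, with the others between 28.991 and 50.2 TPM. Animal 12 had the highest Kcnj2, 47.8 TPM, with the others between 23.2 and 31.1 TPM. Animal 8 had the lowest Cd68, 30.3 TPM, with the others between 39.3 and 43.7 TPM, and the highest Per1, 73.6 TPM, with the others between 39.6 and 49.5 TPM. In saline, animal 53 had the highest Postn, 11.1 TPM, with the others between 2.66 and 4.94 TPM, and the highest Spp1, 9.57 TPM, with the others between 0.352 and 2.18 TPM. Animal 55 had the highest Hamp, 12.8 TPM, with the others between 1.19 and 4.67 TPM, and the highest Atf3, 8.49 TPM, with the others between 3.71 and 4.47 TPM. Animal 51 had the highest Sdha, 1624 TPM, with the others between 1490.0 and 1528 TPM, the highest Per1, 23.6 TPM, with the others between 8.37 and 10.1 TPM, and the highest Zbtb16, 53.3 TPM, with the others between 14.7 and 23.6 TPM.

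On the deposited values, the change against saline of 2 named genes differed between rats given doxorubicin with and without AICAR. For Per1 it was 2.07 with and 2.99 without, a difference of -0.92 on the log2 scale (limma, adjusted p = 0.0359). For Dbp it was 1.72 with and 2.72 without, a difference of -0.998 (adjusted p = 0.024). DOX+AICAR was the lower in 6 of 6 libraries against all 6 of DOX+saline for both genes. Both calls were lost without DOX+AICAR animal 9 or 10, and that of Per1 also without animal 11 or 12, at adjusted p of 0.0529 to 0.0753; DOX+saline animals were not left out in turn.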

How the results depend on the processing

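Over 21 alternatives, 6541 to 8722 genes differed between DOX+AICAR and saline, and 7275 to 7739 when 1 animal was left out (4692 to 5209 higher and 2507 to 2658 lower). Of the counts of changed genes by direction, only those with quantile normalization moved by over 1.5 times, to 3207 higher and 4703 lower. The difference in genes detected was 599.67 to 663.93 without 1 animal and 1388.8 at a limit of 0.1 TPM. No paired analysis was possible because the groups compared share no animal number. A planned quasi-likelihood count test on the recovered reads was not run, since the deposited unit is TPM; voom with limma on those reads was run. Of 129 calls among the named genes, Il6, Tnc and Ptgs2 included, 117 were kept in every alternative that tested them, and 12 were lost in 1 or more: Cd4, Hk2, Nr4a1, Ucp3 and Adrb1 when single animals were left out (Hk2 and Ucp3 also without a filter, Cd4 also with both other scalings), Tnnt2 without a filter and with quantile normalization, and Mb, Pparg, Tlr4, Arc, Ucp2 and Prkaa1 with another scaling. The call of Cd4 was lost without DOX+AICAR animal 7, 9 or 10 or saline animal 51, 52 or 56 (adjusted p = 0.0502 to 0.068). A further 8 were called in 1 or more alternatives: Actc1, Casq2, Cd8a, Clock, Ddit3, Fos, Nr1d1 and Sparc. With only the 12 libraries compared in the fit, calls were made for Cd8a, Clock, Ddit3, Nr1d1 and Sparc (adjusted p = 0.0205, 0.0162, 0.0122, 0.0499 and 0.0436). Leaving out 1 animal gave a call for Actc1 (DOX+AICAR 7 and saline 53, adjusted p = 0.033 and 0.0397), Clock (DOX+AICAR 9, 0.0483), Fos (DOX+AICAR 8 and saline 55, 0.0382 and 0.0203), Nr1d1 (DOX+AICAR 9, saline 52 and 53, 0.0369, 0.0357 and 0.0401) and Sparc (DOX+AICAR 7, 0.0495). The sign of the log2 change turned for 11 genes, all short of the threshold on the deposited values: Adm (-0.0138 with quantile normalization); Actc1 (0.128 with quantile normalization); Casq2 (0.0527 with quantile normalization); Bcl2 (-0.0364 with median-of-ratios factors, -0.0438 with quantile normalization); Cd74 (-0.0401 with median-of-ratios factors); Hif1a (0.0121 with array weights, -0.0651 to 0.0324 without 1 animal); Prkaa2 (-0.0316 to 0.00954 without 1 animal); Cat (-0.0295 to 0.0101 without 1 animal); Trim63 (-0.0564 to 0.022 without 1 animal); Dusp1 (-0.24 to 0.027 without 1 animal); Tbp (-0.0675 with median-of-ratios factors, -0.158 with quantile normalization, -0.00175 to 0.0622 without 1 animal). Of these only Actc1 with quantile normalization was called. The cause was not tested.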
